A study of Mus musculus with 12 samples.

Results

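Apolipoproteins, the ATP-binding cassette exporters that load them with lipid and the receptors that take them up were followed as 9 genes, Apoe, Clu, Abca1, Abca7, Lrp1, Lrp8, Vldlr, Sorl1 and Picalm, among 24736 gene symbols measured by stranded total RNA sequencing of mouse hippocampus. The genes were named for their place in lipoprotein handling and amyloid clearance, and all 9 were in the table. The APP/PS1 group was 3 male transgenic mice carrying APPswe and PSEN1dE9, a Swedish-mutant amyloid precursor protein and a presenilin 1 lacking exon 9, and the WT group was 3 male wild-type littermates, all aged 4 months. The sources used here do not give the promoter of the transgenes or the strain background. The APP/PS1 libraries are numbered 1, 2 and 3 and the WT libraries 1, 2 and 4, and held 120958765 to 134147448 estimated counts in APP/PS1, against 123759886 to 146904552 in WT, where 1 sequenced fragment may stand for several. A separate small RNA table with 3 APP/PS1 and 3 WT columns gave mature miRNAs, at totals of 15593728 to 21631169 counts.

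In brain, astrocytes and microglia secrete apolipoprotein E and clusterin as small lipoprotein particles. The exporters Abca1 and Abca7 move phospholipid and cholesterol out of the cell onto such particles, and receptors of the low density lipoprotein family take them up into neurons and glia by clathrin-coated endocytosis. The same proteins bind or sort the amyloid peptide and its precursor: Sorl1 retains the precursor in the retromer recycling route, Lrp1 carries amyloid peptide across endothelium and into cells, and Picalm links cargo to clathrin. Human APOE, CLU, ABCA7, SORL1 and PICALM are loci of inherited Alzheimer's disease risk. In these bulk samples, fewer cells of a type and less RNA per cell cannot be told apart.

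One library stood apart from the other 5. The summed level of 8 cerebellar marker genes, such as Cbln3 of granule cells and Pcp2 of Purkinje cells, was 3639 CPM (counts per 1000000 counts of a library, with library sizes scaled by the TMM method) in APP/PS1 replicate 3. It was 57.2 and 58.4 CPM in APP/PS1 replicates 1 and 2 and 57.7 to 64.9 CPM in WT. Of these sums Calb2 made up 44.3 and 42.0 CPM in APP/PS1 replicates 1 and 2 and 33.6 to 47.4 CPM in WT. Cbln3 alone stood at 612 CPM in APP/PS1 replicate 3, against 0.31 and 0.42 CPM in replicates 1 and 2 and 0.53 to 0.87 CPM in WT. Hippocampal subfield markers were present in all 6 libraries, summing to 849 to 969 CPM in APP/PS1, against 826 to 909 CPM in WT, but their median in APP/PS1 replicate 3 lay 0.69 log2 units below the mean of all libraries. Calb1, which Purkinje cells also express, made up 400 CPM of that library's sum. The other 11 hippocampal markers, a sum taken after the values were seen, came to 870, 751 and 460 CPM in APP/PS1 replicates 1, 2 and 3, against 818, 788 and 743 CPM in WT replicates 1, 2 and 4. App, the precursor gene, stood at 2948 to 3465 CPM in APP/PS1, against 1522 to 1580 CPM in WT, with a log2 fold change of 1.04 (edgeR adjusted p = 0.117, or 0.0136 without APP/PS1 replicate 3), so its level followed the labels. Prnp, the prion protein gene, had the same log2 fold change of 1.04 (edgeR adjusted p = 0.165, or 0.0172 without that library). With all 6 libraries DESeq2 gave an adjusted p of 7.14e-22 for App and 3.1e-14 for Prnp. Without WT replicate 1 the edgeR adjusted p of App was 0.663, and without WT replicate 2 it was 0.906. With all 6 libraries edgeR thus called neither gene, so a gene it did not call is not shown to be unchanged. Choroid plexus markers were unequal too, summing to 1928 to 4281 CPM in APP/PS1, the highest in replicate 2, and 1626 to 1933 CPM in WT. Of 8 neocortex markers 0 were positive, with a median log2 fold change of -0.47 and sums of 191 to 296 CPM in APP/PS1, against 296 to 382 CPM in WT. Of 10 oligodendrocyte markers 0 were positive, with a median log2 fold change of -0.25 and sums of 2642 to 3258 CPM in APP/PS1, against 2788 to 4130 CPM in WT. Meningeal fibroblast markers summed to 151 to 436 CPM in APP/PS1, lowest in replicate 1, and to 176 to 310 CPM in WT. The part of these tissues in the values of the 9 genes was not tested. Results for the 9 genes are therefore given with all 6 libraries and without APP/PS1 replicate 3.

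None of the 9 genes passed edgeR's quasi-likelihood test at a Benjamini-Hochberg adjusted p of 0.05 over the 18060 genes tested, where 1 gene, Dag1, did (0.00554% of genes). All 9 had an adjusted p of 0.887 in that edgeR test. At an unadjusted p under 0.05 edgeR also named 0 of the 9, against 3.42% of all genes tested. DESeq2 and limma-voom called 0 of the 9 as well. The 9 log2 fold changes, APP/PS1 over WT, ran from -0.24 to 0.68 with a median of 0.14, while the median over all genes tested was 0.01. Of the 9, 7 were positive and 2, Apoe and Clu, were negative, while 52.3% of all genes tested were positive. Without APP/PS1 replicate 3 edgeR called 5 genes of 18302 (0.0273%) and again 0 of the 9, whose median log2 fold change was then 0.06. In that fit 7 of the 9 were again positive, while 49.7% of all genes tested were positive and their median was -0.001.

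The levels of the 3 APP/PS1 libraries did not overlap those of the 3 WT libraries for 3 of the 9 genes. Apoe and Clu were lower in every APP/PS1 library, as were 4.76% of all genes tested, and Lrp8 was higher in every APP/PS1 library, as were 5.63%. In either direction 10.4% of all genes tested had groups that did not overlap. With 3 libraries against 3, an exact two-sided permutation test of a single gene cannot give a p below 0.1.

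**Figure D1:**
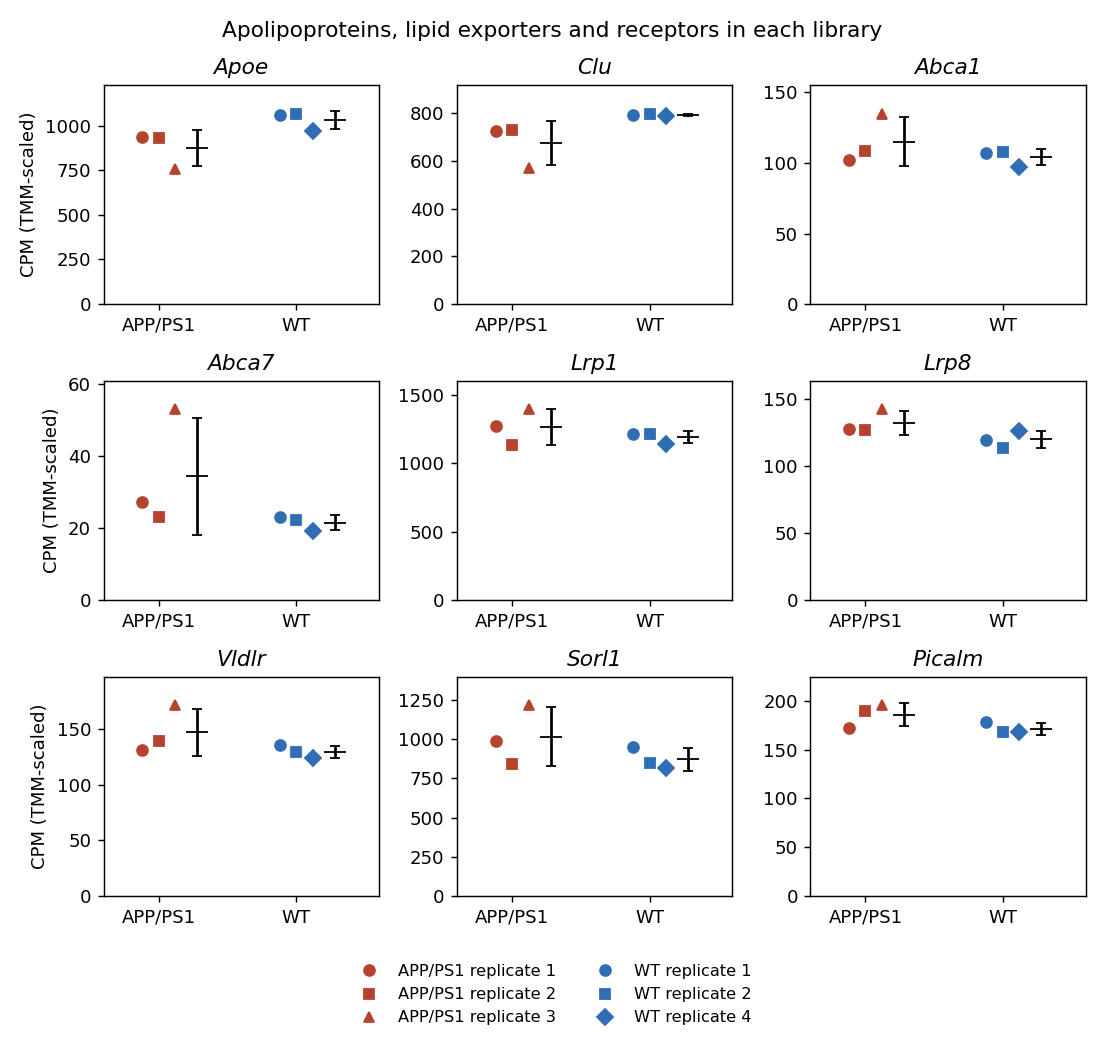
Level of each of the 9 genes in CPM (vertical axis, from 0) in the APP/PS1 (red) and WT (blue) hippocampal libraries; black bars are mean and SD of 3 libraries. APP/PS1 replicate 3 (red triangle) is the lowest library for Apoe and Clu and the highest for the other 7 genes.

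The apolipoproteins come first in the route. Apoe, whose product is the main apolipoprotein of astrocyte lipoproteins, lies on chromosome 7 (19696244 to 19701310, mm10). It stood at 934, 931 and 755 CPM in APP/PS1 replicates 1, 2 and 3, against 1056, 1067 and 971 CPM in WT replicates 1, 2 and 4. Every APP/PS1 library lay below every WT library, and APP/PS1 replicate 3 lay below all others. The mean was 874 ± 102 CPM over APP/PS1, against 1032 ± 52.5 CPM over WT (± SD of 3 libraries each), and the log2 fold change was -0.24 (SE 0.11, 95% interval -0.50 to 0.02, edgeR unadjusted p = 0.0633). Without APP/PS1 replicate 3 the log2 fold change was -0.15 (95% interval -0.31 to 0.01, edgeR unadjusted p = 0.0593).

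Clu encodes clusterin, also called apolipoprotein J, a secreted chaperone that binds amyloid peptide, and lies on chromosome 14 (65968483 to 65981548). Its levels were 724, 731 and 570 CPM in APP/PS1 replicates 1, 2 and 3, against 793, 799 and 787 CPM in WT replicates 1, 2 and 4. The WT libraries were closely matched, and replicate 3 again was the low library of APP/PS1, so that the coefficient of variation was 13.5% in APP/PS1, against 0.717% in WT. The mean was 675 ± 91.1 CPM over APP/PS1, against 793 ± 5.68 CPM over WT (± SD of 3 libraries each), and the log2 fold change was -0.23 (SE 0.11, 95% interval -0.50 to 0.03, edgeR unadjusted p = 0.0771). Without APP/PS1 replicate 3 it was -0.13 (95% interval -0.26 to -0.0007, edgeR unadjusted p = 0.0491), with an edgeR adjusted p of 0.995. In percent, the intervals with all 6 libraries run from -29.2% to 1.23% for Apoe and from -29.3% to 2.35% for Clu.

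Astrocyte markers, the genes of the main cell type that makes Apoe and Clu, summed to 7233 to 8415 CPM in APP/PS1, against 8152 to 8960 CPM in WT. Of the 12 listed, 5 were positive on the log2 fold change scale, their median was -0.09, and none was at 0 in all libraries. The 12 microglia markers summed to 191 to 317 CPM in APP/PS1, against 273 to 309 CPM in WT, with 0 positive and a median of -0.21. Both sums were lowest in APP/PS1 replicate 3, although the median astrocyte marker there lay 0.20 log2 units above its mean over the 6 libraries and the median microglia marker 0.53 below (-0.53). Slc1a2, the largest astrocyte value, stood at 5356, 6188 and 3925 CPM in APP/PS1 replicates 1, 2 and 3, against 5658 to 6315 CPM in WT. The astrocyte markers were split in replicate 3: Slc1a2, Gfap and Fgfr3 were at their lowest, and Aqp4, Slc1a3, Gjb6, S100b, Aldoc and Slc4a4 at their highest. The part of these cell types in the Apoe and Clu values was not tested.

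The lipid exporters ran the other way in the library that stood apart. Abca1, which starts lipoprotein formation by handing phospholipid and cholesterol to apolipoproteins, lies on chromosome 4 (53030789 to 53159988). It stood at 102, 108 and 135 CPM in APP/PS1 replicates 1, 2 and 3, against 107, 108 and 97.5 CPM in WT replicates 1, 2 and 4. APP/PS1 replicate 1 lay inside the WT range, replicate 2 lay just above it (108.3 CPM, against 107.6 CPM in WT replicate 2), and replicate 3 was the high library. The mean was 115 ± 17.4 CPM over APP/PS1, against 104 ± 5.68 CPM over WT (± SD of 3 libraries each), and the log2 fold change was 0.15 (SE 0.12, 95% interval -0.14 to 0.43). Without APP/PS1 replicate 3 it was 0.01 (95% interval -0.16 to 0.19), and with the replicate number as a block it was -0.03.

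Abca7, an exporter close in structure to Abca1 that is also needed for phagocytosis, lies on chromosome 10 (79996453 to 80015572) and had the widest spread of the 9 genes. It stood at 27.2, 23.1 and 53.0 CPM in APP/PS1 replicates 1, 2 and 3, against 23.2, 22.3 and 19.1 CPM in WT replicates 1, 2 and 4. Replicate 3 was 2.10 times the mean of the other APP/PS1 libraries, a ratio reached or passed by 4.45% of all genes tested. APP/PS1 replicate 2 lay within the WT range, and replicate 1 lay above it. The mean was 34.4 ± 16.2 CPM over APP/PS1, against 21.6 ± 2.14 CPM over WT (± SD of 3 libraries each), and the log2 fold change was 0.68 (SE 0.31, 95% interval -0.06 to 1.41, edgeR unadjusted p = 0.0667). Without APP/PS1 replicate 3 it was 0.22 (95% interval -0.07 to 0.50, edgeR unadjusted p = 0.112), and with the replicate block 0.14. Of the 4 tested genes within 20 kb of Abca7, Grin3b was also highest in replicate 3 among the APP/PS1 libraries, at 1.43, 1.03 and 1.72 CPM in APP/PS1, against 1.14, 1.77 and 0.85 CPM in WT. Tmem259 stood at 52.3, 54.0 and 52.5 CPM in APP/PS1, against 61.0, 52.8 and 51.9 CPM in WT. Cnn2, the nearest upstream, stood at 4.82, 5.63 and 5.30 CPM in APP/PS1, against 4.64, 6.65 and 5.39 CPM in WT, and Arhgap45, downstream, at 5.17, 5.53 and 3.89 CPM in APP/PS1, against 5.81, 4.91 and 5.59 CPM in WT. Tmem259, Cnn2 and Arhgap45 were not at their highest in APP/PS1 replicate 3.

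APP/PS1 replicate 3 was the highest library for 7 of the 9 genes, these sister exporters among them. The bases before the genes are shown for both exporters. They are the stretches of RefSeq's GRCm38.p6 promoter windows that lie outside the annotated gene, 5′ to 3′ on the gene's strand, at chr4:53159989-53160145 (minus strand) for Abca1 and chr10:79996244-79996452 (plus strand) for Abca7. Capitals mark the GC box GGGCGG, a binding motif of Sp1-type factors, and the E-box CACGTG, both searched on both strands.
Abca1: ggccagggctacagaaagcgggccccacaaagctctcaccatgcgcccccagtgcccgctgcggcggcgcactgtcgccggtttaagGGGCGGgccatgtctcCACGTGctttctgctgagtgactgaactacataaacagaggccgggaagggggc
Abca7: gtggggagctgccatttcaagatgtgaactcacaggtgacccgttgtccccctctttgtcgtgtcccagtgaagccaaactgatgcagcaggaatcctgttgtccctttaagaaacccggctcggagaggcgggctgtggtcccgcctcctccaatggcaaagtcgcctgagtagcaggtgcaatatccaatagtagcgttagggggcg
The Abca1 stretch holds 1 GC box and 1 E-box, and the Abca7 stretch holds 0 of either within these bases. The first 250 bases of each window were also searched, which for Abca1 and Abca7 run into the annotated gene. The 8 genes with a window had 14 windows. A GC box was in 6 of the 14 (Abca1, Abca7, Lrp1, Picalm, Sorl1 and Vldlr), against 32.7% of all 32851 windows. An E-box was in 3 of the 14 (Abca1, Picalm and Sorl1), against 6.02% of all windows. The motif TATAAA was in 2 of the 14 (Abca1 and Apoe), against 12.4% of all windows. The nuclear receptor half-site AGGTCA was in 1 of the 14 (Lrp8), against 14.02% of all windows. A match is a string of letters and not a shown binding site.

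Lrp1 is a large endocytic receptor of apolipoprotein E and alpha-2-macroglobulin, on chromosome 10 (127538157 to 127621148). It stood at 1277, 1134 and 1395 CPM in APP/PS1 replicates 1, 2 and 3, against 1215, 1218 and 1143 CPM in WT replicates 1, 2 and 4. The groups overlapped, and APP/PS1 held both the lowest and the highest library. The mean was 1269 ± 131 CPM over APP/PS1, against 1192 ± 42.4 CPM over WT (± SD of 3 libraries each), and the log2 fold change was 0.09 (SE 0.10, 95% interval -0.15 to 0.33), 0.01 without APP/PS1 replicate 3 and -0.02 with the replicate block.

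Lrp8 (apolipoprotein E receptor 2) and Vldlr, the very low density lipoprotein receptor, are the paired receptors of reelin, a secreted protein that guides neuronal layering and modulates synapses. Lrp8, on chromosome 4 (107802200 to 107876840), stood at 128, 127 and 142 CPM in APP/PS1 replicates 1, 2 and 3, against 120, 114 and 127 CPM in WT replicates 1, 2 and 4. The groups only just failed to overlap, since APP/PS1 replicate 2 at 126.77 CPM and WT replicate 4 at 126.61 CPM were nearly equal. The mean was 132 ± 8.70 CPM over APP/PS1, against 120 ± 6.40 CPM over WT (± SD of 3 libraries each), and the log2 fold change was 0.14 (SE 0.08, 95% interval -0.06 to 0.34), or 0.08 without APP/PS1 replicate 3. The long noncoding gene Lrp8os2 overlaps Lrp8, and its levels were 2.59 to 5.11 CPM in APP/PS1, against 2.81 to 4.79 CPM in WT. The strand setting of the counting is not known here, so reads of the pair may not be fully separated.

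Vldlr, on chromosome 19 (27216480 to 27254231), stood at 131, 139 and 171 CPM in APP/PS1 replicates 1, 2 and 3, against 135, 129 and 124 CPM in WT replicates 1, 2 and 4. APP/PS1 replicate 1 lay within the WT range, replicate 2 lay above it and replicate 3 lay well above it. The mean was 147 ± 21.1 CPM over APP/PS1, against 129 ± 5.72 CPM over WT (± SD of 3 libraries each), and the log2 fold change was 0.19 (SE 0.11, 95% interval -0.09 to 0.46), or 0.06 without APP/PS1 replicate 3.

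Reln, which encodes the ligand of both receptors and was singled out after its values were seen, stood at 168, 171 and 572 CPM in APP/PS1 replicates 1, 2 and 3, against 180, 184 and 183 CPM in WT replicates 1, 2 and 4. Its level in APP/PS1 replicate 3 was 3.38 times the mean of the other APP/PS1 libraries, and those lay below all WT libraries. Its log2 fold change was 0.74 (SE 0.48) with all libraries and -0.11 without APP/PS1 replicate 3, edgeR adjusted p 0.887 and 0.995. A2m, the gene of the Lrp1 ligand alpha-2-macroglobulin, stood at 14.4, 17.0 and 60.4 CPM in APP/PS1 replicates 1, 2 and 3, against 12.4, 17.8 and 10.1 CPM in WT replicates 1, 2 and 4. Its log2 fold change was 1.19 (SE 0.57), or 0.22 without APP/PS1 replicate 3. So ligand and receptor genes of these pairs were highest in the same library, the one with the cerebellar markers. That library was the highest for 7 of the 9 genes, whereas Apoe, another ligand gene of Lrp1, was lowest in it at 755 CPM. The part of the cerebellar signal in these values was not tested.

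**Figure D2:**
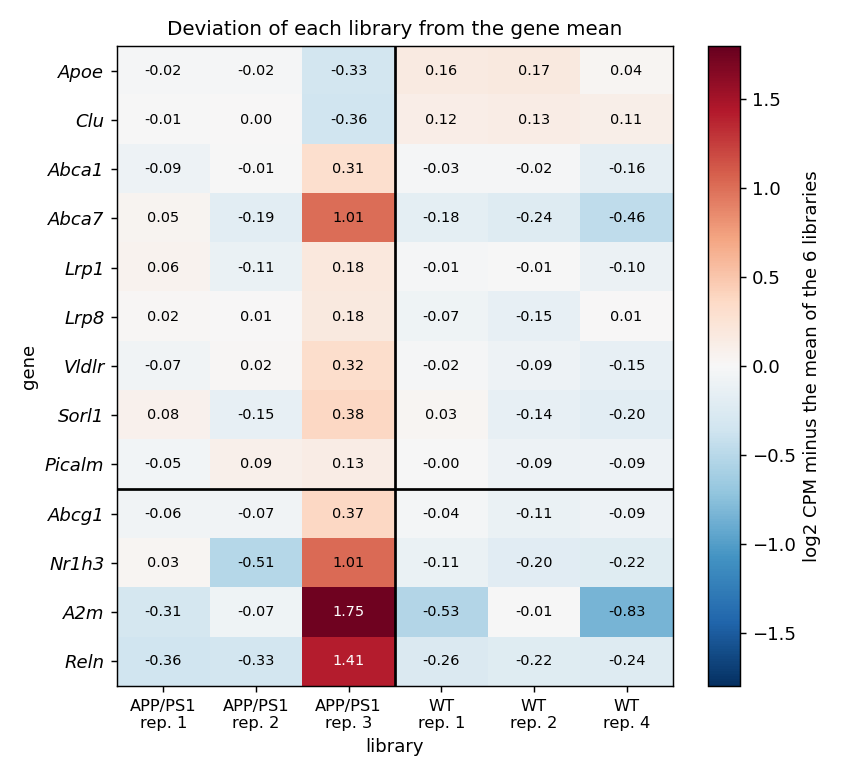
Deviation of each library (columns, APP/PS1 left of WT) from the gene's mean log2 CPM over the 6 libraries, for the 9 genes (above the line) and for Abcg1, Nr1h3, A2m and Reln (below it), on a colour scale in log2 units. APP/PS1 replicate 3 runs from -0.36 for Clu to 1.01 for Abca7 among the 9 genes and reaches 1.41 for Reln and 1.75 for A2m below the line.

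Sorl1, the sorting receptor, lies on chromosome 9 (41964709 to 42124297). It stood at 988, 842 and 1214 CPM in APP/PS1 replicates 1, 2 and 3, against 952, 845 and 815 CPM in WT replicates 1, 2 and 4. APP/PS1 replicate 2 was within the WT range and replicate 1 above it, and replicate 3 was 1.33 times the mean of the other APP/PS1 libraries. The mean was 1015 ± 188 CPM over APP/PS1, against 871 ± 72.1 CPM over WT (± SD of 3 libraries each), and the log2 fold change was 0.22 (SE 0.15, 95% interval -0.13 to 0.57), or 0.07 (95% interval -0.17 to 0.31) without APP/PS1 replicate 3.

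Picalm, the clathrin assembly adaptor on chromosome 7 (90130192 to 90209447), varied least over the 6 libraries. It stood at 173, 190 and 195 CPM in APP/PS1 replicates 1, 2 and 3, against 178, 168 and 168 CPM in WT replicates 1, 2 and 4, a range of 1.16-fold from the lowest to the highest library. APP/PS1 replicate 1 lay within the WT range, and replicates 2 and 3 lay above it. The mean was 186 ± 11.9 CPM over APP/PS1, against 171 ± 5.97 CPM over WT (± SD of 3 libraries each), and the log2 fold change was 0.12 (SE 0.08, 95% interval -0.07 to 0.31), or 0.08 without APP/PS1 replicate 3.

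**Figure D3:**
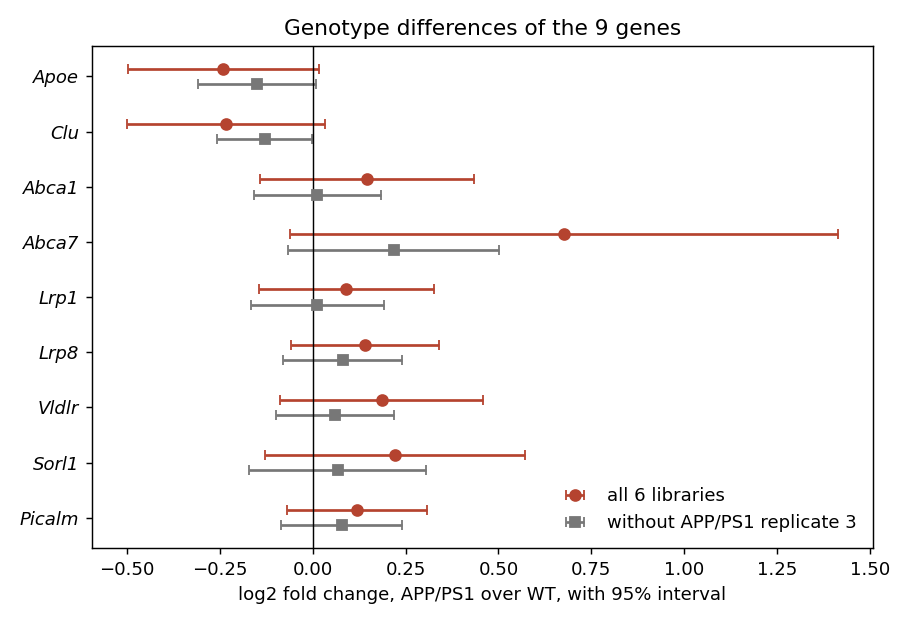
Log2 fold change of each gene, APP/PS1 over WT (horizontal axis), with its 95% interval from the edgeR fit, with all 6 libraries (red circles) and without APP/PS1 replicate 3 (grey squares). The values of 8 genes lie within 0.25 of 0, Abca7 moves to 0.22 from 0.68 when that library is left out, and only the interval of Clu without that library excludes 0, narrowly.

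The departure of APP/PS1 replicate 3 was set beside that of all genes tested. Its ratio to the mean of APP/PS1 replicates 1 and 2 was 0.81 for Apoe and 0.78 for Clu, ratios at or below which lay 23.3% and 20.7% of all genes tested. For the other genes it ran from 1.08 for Picalm to 2.10 for Abca7. Ratios at or above that of Sorl1 were found for 17.3% of genes, of Abca1 for 19.6%, of Vldlr for 20.8% and of Picalm for 38.3%. The median distance of a gene from its mean over the 6 libraries was 0.24 log2 units in APP/PS1 replicate 3 and 0.10 to 0.12 in the other 5 libraries. The part of the cerebellar signal in the values of the 9 genes was not tested, and the values without that library are those given above.

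The genes whose profile over the 6 libraries was most like each of the 9 were found by the root-mean-square difference of centred log2 CPM, among genes of at least 5 CPM. For Apoe the nearest were Gpx3 (0.034 log2 units), Dennd1a (0.035) and Rpl10a (0.036). For Clu they were Lrrc8b (0.032), Syt11 (0.033) and Bean1 (0.034). Gpr108 (0.019) was nearest to Abca1, Strip2 (0.056) to Abca7, Zxdc (0.022) to Lrp1, Ube2d-ps (0.020) to Lrp8, Atad2b (0.015) to Vldlr, Zdhhc14 (0.025) to Sorl1 and Skiv2l2 (0.019) to Picalm. The match to Abca7 was the loosest: Strip2 stood at 69.9, 65.3 and 146 CPM in APP/PS1 replicates 1, 2 and 3, against 59.8, 62.7 and 52.0 CPM in WT replicates 1, 2 and 4.

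The wider pathway was read from 7 lists of 101 other genes, of which 97 passed the expression filter. Apoa4, Apoa5, Apoc2 and Apoc4 did not pass it. No listed gene passed edgeR's test over all genes in either direction, with 1 of the 97 at an unadjusted p under 0.05, against 3.42% of all genes tested. DESeq2, which called 26 genes of 18060, and limma-voom, which called 1, called 0 of the listed genes. The median log2 fold change of the 97 was -0.03, with 41 positive and 56 negative, or -0.005 with 44 positive without APP/PS1 replicate 3. None of the 7 list medians below is read as a direction, since 3 of them change sign when that library is left out.

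Among 9 other apolipoproteins tested, 5 log2 fold changes were positive and 4 negative, their median being 0.08, or 2 positive of 9 and a median of -0.20 without APP/PS1 replicate 3. The pair of smallest p were at low levels: Apoh stood at 0.35, 0.18 and 0.11 CPM in APP/PS1, against 0.07, 0.13 and 0.05 CPM in WT, and Apoa2, an apolipoprotein of plasma high density lipoprotein, at 1.00, 0.77 and 1.33 CPM in APP/PS1, against 0.90, 0.50 and 0.62 CPM in WT. Other lipid exporters had 7 positive and 3 negative with a median of 0.06, or 5 positive and a median of 0.002 without APP/PS1 replicate 3. Abca4, a retinoid transporter of photoreceptors, stood at 17.0, 34.8 and 23.1 CPM in APP/PS1, against 17.8, 20.3 and 14.8 CPM in WT, and was highest in replicate 2, the library in which the choroid plexus markers were highest. Abcg2, a transporter of the blood-brain barrier, stood at 10.2, 14.7 and 10.8 CPM in APP/PS1, against 13.8, 12.7 and 15.5 CPM in WT. Abcg1, which passes cholesterol to particles begun by Abca1 and was singled out after its values were seen, stood at 97.4, 96.9 and 131 CPM in APP/PS1, against 98.7, 93.8 and 95.1 CPM in WT, so that its high library was the one of Abca1.

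Lipid remodelling and sterol genes had 5 positive and 5 negative with a median of 0.003, or 8 positive of 10 and a median of 0.08 without APP/PS1 replicate 3. Cyp46a1, the neuronal enzyme that clears brain cholesterol as 24-hydroxycholesterol, stood at 89.0, 84.0 and 52.5 CPM in APP/PS1, against 89.1, 91.9 and 94.2 CPM in WT, with a log2 fold change of -0.29 (SE 0.19), or -0.09 without APP/PS1 replicate 3. Pltp, the phospholipid transfer protein, stood at 32.0, 52.4 and 55.2 CPM in APP/PS1, against 42.0, 37.5 and 33.3 CPM in WT. Its groups overlapped.

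Other lipoprotein and sorting receptors had 6 positive and 9 negative among 15 with a median of -0.05, or 9 positive of 15 and a median of 0.03 without APP/PS1 replicate 3. Lrp5, a co-receptor of Wnt signalling, was the gene at an unadjusted p under 0.05 (edgeR unadjusted p = 0.0325, adjusted p = 0.887): it stood at 21.2, 21.7 and 20.9 CPM in APP/PS1, against 18.4, 19.1 and 16.4 CPM in WT, and its log2 fold change was 0.24 (SE 0.09) with all libraries and 0.25 without APP/PS1 replicate 3. APP/PS1 replicate 3 lay close to the other APP/PS1 libraries for Lrp5. Lrp4, an agrin receptor, stood at 102, 81.9 and 68.3 CPM in APP/PS1, against 106, 108 and 104 CPM in WT, a log2 fold change of -0.34 (SE 0.14), or -0.21 without APP/PS1 replicate 3.

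Ligands, chaperones and adaptors of the receptors had 4 positive and 6 negative with a median of -0.03, or again 4 positive and a median of -0.07 without APP/PS1 replicate 3. Dlg4, the postsynaptic scaffold PSD-95 that binds the Lrp8 tail, stood at 995, 892 and 697 CPM in APP/PS1, against 1036, 986 and 996 CPM in WT. Neuron markers summed to 6570 to 8236 CPM in APP/PS1, against 8107 to 8676 CPM in WT, lowest in APP/PS1 replicate 3 as Cyp46a1 and Dlg4 were. The markers were split in that library: Syt1, Tubb3, Map2, Nefl, Nefm and Slc17a7 were at their lowest, and Rbfox3, Snap25 and Stmn2 at their highest. The median neuron marker there lay 0.28 log2 units below (-0.28) its mean over the 6 libraries. The part of neurons in the Cyp46a1 and Dlg4 values was not tested. Sterol-sensing transcription factors had 3 positive and 7 negative with a median of -0.05, or 5 positive of 10 and a median of 0.006 without APP/PS1 replicate 3. Nr1h3, the liver X receptor alpha that switches on Abca1, Abcg1 and Apoe, stood at 3.52, 2.41 and 6.96 CPM in APP/PS1, against 3.17, 3.00 and 2.94 CPM in WT, with a log2 fold change of 0.50 (SE 0.38) that was -0.04 without APP/PS1 replicate 3. Its partner Rxrb, a retinoid X receptor, stood at 34.1, 31.8 and 35.5 CPM in APP/PS1, against 28.5, 32.0 and 31.0 CPM in WT, overlapping.

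The clathrin and retromer list, the machinery that Picalm and Sorl1 work with, had 11 positive and 22 negative among 33 with a median of -0.06, all between -0.24 and 0.24, or 11 positive and a median of -0.02 without APP/PS1 replicate 3. Snap91, the neuronal relative of Picalm, stood at 293, 339 and 309 CPM in APP/PS1, against 369, 334 and 349 CPM in WT, a log2 fold change of -0.16 (SE 0.09) beside 0.12 for Picalm. Clta, a clathrin light chain, stood at 79.1, 85.0 and 74.9 CPM in APP/PS1, against 89.5, 95.4 and 84.5 CPM in WT. Both had groups that overlapped.

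**Figure D4:**
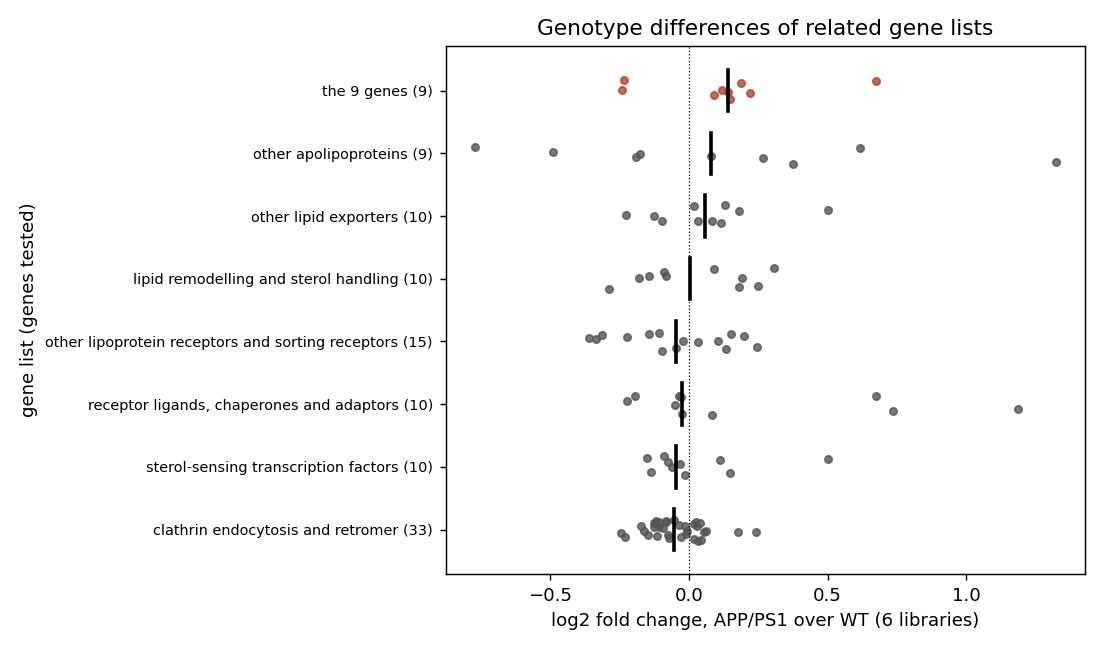
Log2 fold changes, APP/PS1 over WT with 6 libraries (horizontal axis), of the 9 genes (red) and of the tested genes of 7 related lists (grey), 1 point a gene, with the median of each row as a black bar. Medians lie between -0.06 and 0.14, and no gene passed the test over all genes.

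The genomic neighbours of the 9 genes were read from the same fit. Of 14 tested genes within 20 kb, 0 passed edgeR's test and 1, Scara3 beside Clu on chromosome 14 (65919394 to 65953978), had an unadjusted p under 0.05 (edgeR unadjusted p = 0.0096, adjusted p = 0.887), against 3.42% of all genes tested. Scara3, a class A scavenger receptor-like protein induced by oxidative stress, stood at 29.2, 28.7 and 21.4 CPM in APP/PS1, against 33.3, 42.9 and 40.7 CPM in WT, a log2 fold change of -0.56 (SE 0.16). It was singled out after its values were seen, and APP/PS1 replicates 1 and 2 as well as replicate 3 lay below every WT library. Tomm40, next to Apoe, stood at 38.1, 32.9 and 32.5 CPM in APP/PS1, against 35.9, 39.4 and 33.4 CPM in WT, so the groups overlapped for Tomm40. Nectin2, also near Apoe, stood at 4.91, 4.97 and 4.03 CPM in APP/PS1, against 5.07, 6.26 and 5.48 CPM in WT. Magoh, near Lrp8, stood at 10.1, 13.7 and 11.6 CPM in APP/PS1, against 7.75, 9.75 and 9.91 CPM in WT. Both were singled out after their values were seen. Groups did not overlap for Scara3, Nectin2 and Magoh among the tested neighbours, and for 10.4% of all genes tested.

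MicroRNAs pair through their seed, bases 2 to 8, with sites in target transcripts and lower their stability and translation. Several have reported sites in Abca1 transcripts of mammalian cells, miR-33-5p among them, which is encoded within Srebf2, the sterol regulator, on chromosome 15. The 9 followed here are printed because Abca1 is a reported target of each. They have 7 distinct seeds, shown in capitals in the RefSeq mature sequences, with miR-26a-5p and miR-26b-5p sharing 1 seed and miR-27a-3p and miR-27b-3p another. miR-26a-5p is encoded on chromosomes 9 and 10 within Ctdspl and Ctdsp2, miR-26b-5p on chromosome 1 within Ctdsp1, miR-106b-5p on chromosome 5 within Mcm7 and miR-27b-3p on chromosome 13 within Aopep.
miR-33-5p: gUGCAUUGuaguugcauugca
miR-106b-5p: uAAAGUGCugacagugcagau
miR-26a-5p: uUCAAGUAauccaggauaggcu
miR-26b-5p: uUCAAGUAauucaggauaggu
miR-27a-3p: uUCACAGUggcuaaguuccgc
miR-27b-3p: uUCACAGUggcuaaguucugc
miR-144-3p: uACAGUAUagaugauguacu
miR-148a-3p: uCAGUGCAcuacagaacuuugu
miR-758-3p: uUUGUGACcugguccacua

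None of the 9 passed edgeR's test over the 703 miRNAs tested, where 0 (0%) did and 25 had an unadjusted p under 0.05. Of the 9, 0 had an unadjusted p under 0.05, and DESeq2 called 0 miRNAs. The pair with the seed UCAAGUA had 1 column apart. miR-26a-5p stood at 50038, 46099 and 79762 CPM in the APP/PS1 columns headed APP1, APP2 and APP3 and at 48441, 47969 and 47298 CPM in the WT columns headed WT1, WT2 and WT4. miR-26b-5p stood at 2075, 2067 and 3472 CPM in those APP/PS1 columns and at 2307, 2056 and 2184 CPM in those WT columns. The log2 fold changes were 0.29 (SE 0.22) and 0.22 (SE 0.22), and without the column headed APP3 they were 0.03 and -0.05. No label ties that column to the total RNA library of the same number, in which Abca1 was highest.

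miR-33-5p stood at 8.10, 12.004 and 9.88 CPM in the APP/PS1 columns and 7.996, 13.2 and 10.9 CPM in the WT columns, a log2 fold change of -0.10 (SE 0.25, 95% interval -0.67 to 0.47). Its host gene Srebf2 stood at 185, 177 and 141 CPM in APP/PS1, against 182, 181 and 172 CPM in WT. miR-148a-3p stood at 11846, 11557 and 7615 CPM in the APP/PS1 columns and 10476, 11189 and 10065 CPM in the WT columns. The log2 fold changes of the other 5 ran from -0.23 for miR-144-3p to 0.07 for miR-758-3p, and the groups overlapped for all 9.

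**Figure D5:**
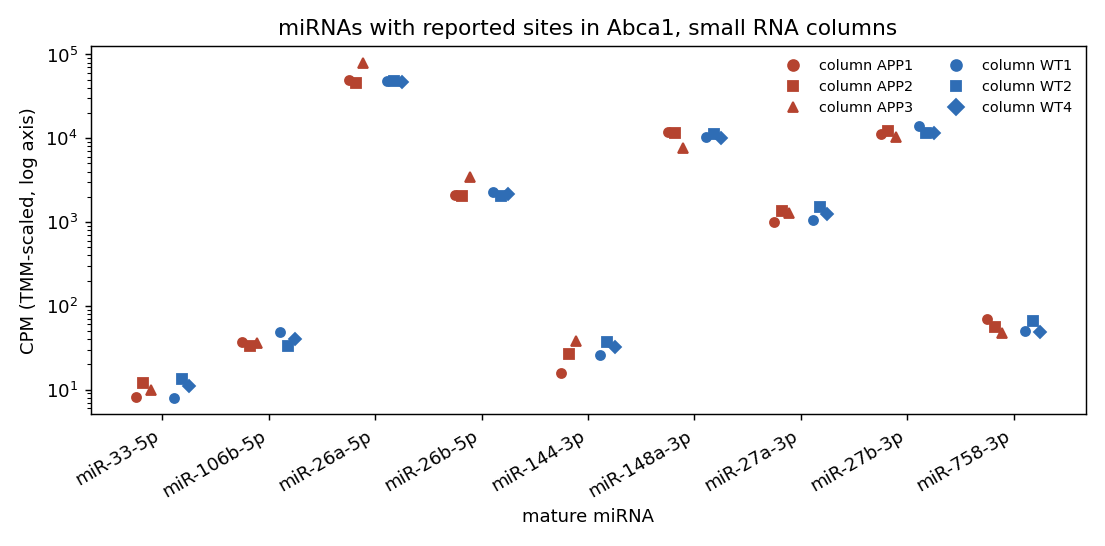
Level of 9 miRNAs with reported Abca1 sites in CPM (vertical log axis) in the APP/PS1 (red) and WT (blue) small RNA columns, 1 point a column. The groups overlap for all 9, and miR-26a-5p and miR-26b-5p are highest in the column headed APP3, at 79762 and 3472 CPM.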

How the data were processed

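Per the labels, RNA was extracted with TRIzol, and stranded total RNA and small RNA libraries were sequenced on an Illumina HiSeq instrument. Per the submitters' processing notes the tools were HISAT2, StringTie and DESeq, with no versions, and the build was mm10; the sources used here do not give the counting step, annotation or strand setting. The authors deposited whole-number estimated counts per gene symbol and raw counts per mature miRNA. Among the deposited estimated counts the value 4 occurred 1817 times against 897 for the value 3, so a fragment may stand for about 4 and depth in fragments is uncertain. Small RNA columns were assigned by genotype, since their headings equal total RNA titles.

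Each table was tested with edgeR 4.0.16 (R 4.3.3, quasi-likelihood, TMM, filterByExpr, no covariate), with Benjamini-Hochberg adjustment at 0.05 over all features. The procedure was also run on simulated total RNA counts. There the spread of each gene was capped at the median over genes and no library was set apart. That run therefore does not cover data with a library like APP/PS1 replicate 3. CPM are TMM-scaled, SE and 95% intervals come from the F statistic, and log2 CPM used a prior count of 3. Replicates are taken as separate mice; otherwise p-values measure technical spread. For the 9 genes, with at least 2818 estimated counts in each library, the spread between libraries, not counting error, limits precision. The common biological coefficient of variation over all genes tested was 26.4%, or 19.7% without APP/PS1 replicate 3. The same is not said of genes at low levels, such as Apoh.

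Members and lists were chosen with earlier results of these data known. Named were the 9 genes, from each list the genes past the threshold or else 2 of smallest p, and genes of most similar profile. Alternatives were other size factors, count filters, DESeq2 1.42.0, limma-voom (limma 3.58.1), a replicate block and leaving out each library. Positions, promoters and miRNA sequences are from RefSeq (GRCm38.p6, the assembly of mm10), which matched all 9 genes, 8 with a promoter window. Levels were not compared between genes, since no transcript lengths were used here.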

Additional observations from a re-analysis of the deposited data

How the results depend on the processing

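Counts of the 9 genes and of the pathway genes past the threshold were 0 under all 14 alternatives in total RNA, where Apoh was not tested under 2 of them (a mean count of at least 100, and estimated counts divided by 4), and the smallest adjusted p of the 9 was 0.563, without APP/PS1 replicate 1. The count over all genes was 1; it was 26 with DESeq2, and 0 to 6 with 1 library left out: 6, 1 and 5 without APP/PS1 replicates 1, 2 and 3, and 0, 0 and 4 without WT replicates 1, 2 and 4 (371, 345 and 360 at an unadjusted p under 0.05). Unadjusted p under 0.05 named Abca7 with DESeq2, Apoe without APP/PS1 replicate 1, Abca7 and Sorl1 without replicate 2, and Clu without replicate 3, and Apoe with the replicate block. Dividing the estimated counts by 4, chosen after seeing the data, left the count at 1. Over all alternatives the log2 fold change ran from -0.29 to -0.15 for Apoe, -0.29 to -0.13 for Clu, 0.14 to 0.90 for Abca7, 0.08 to 0.18 for Lrp8 and 0.02 to 0.34 for Sorl1.

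APP/PS1 and WT share the replicate numbers 1 and 2, which the labels do not tie to a litter or batch. Deviations from the group means correlated at 0.09 for number 1 and -0.04 for number 2. With the replicate block, which compares only these 4 libraries, the count over all genes was 2, and log2 fold changes reversed for Abca1 (-0.028), Lrp1 (-0.015), Nr1h3 (-0.083) and Reln (-0.10). With 1 library left out, that of Nr1h3 ran from -0.040 to 0.79 and that of Reln from -0.11 to 1.04, both negative only without APP/PS1 replicate 3.

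In small RNA the count was 0 (25 at an unadjusted p under 0.05; DESeq2 0 and 20); it was 5 with no count filter, and 0 to 3 with 1 column left out (3 without APP1). With 1 column left out, log2 fold changes ran from -0.26 to 0.10 for miR-33-5p, -0.16 to 0.10 for miR-27a-3p, -0.54 to 0.062 for miR-144-3p, -0.069 to 0.24 for miR-758-3p, -0.13 to 0.17 for miR-148a-3p and -0.047 to 0.35 for miR-26b-5p. The cause was not tested. The replicate block planned for small RNA was not run: its column headings are titles of total RNA samples, so their numbers were not taken as replicate numbers of small RNA samples. A comparison of levels per length was not run.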
